A study of Mus musculus with 4 samples.

Results

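The genes described here are the NF-κB subunits and their feedback inhibitors, a set of 10 genes (Rela, Rel, Relb, Nfkb1, Nfkb2, Nfkbia, Nfkbie, Nfkbiz, Nfkbid and Tnfaip3) among 48858 genes with transcripts in the files. They were followed in naive CD4 T cells of mice, sorted by flow cytometry as TCRb+ CD4+ CD25- CD62L-high CD44-low cells, in rRNA-depleted total RNA. The 2 wild-type libraries (WT) came from littermate controls with loxP-flanked Btg1 and Btg2 (Btg1f/f Btg2f/f), for which the labels name no Cre. The 2 double-knockout libraries (DKO) came from Btg1f/f Btg2f/f-CD4-Cre mice, in which Cre expressed from Cd4 regulatory sequences deletes both genes in T lineage cells from the thymus on. The labels name no treatment. No age, sex or strain is given in the labels. The comparison asks how RNA levels in resting T cells differ without BTG1 and BTG2, related proteins that recruit the CCR4-NOT deadenylase, which shortens poly(A) tails.

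NF-κB is a family of dimeric transcription factors built from RelA, RelB, c-Rel, p50 (from Nfkb1) and p52 (from Nfkb2). In resting T cells most dimers are held in the cytoplasm by IκB proteins such as IκBα (Nfkbia), and signals from the antigen receptor or TNF family receptors activate the IKK kinases, which mark IκB for degradation. Several of the inhibitors are themselves NF-κB target genes, so the pathway shuts itself off, and several of their mRNAs are short-lived through elements in their 3′ untranslated regions (UTRs).

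The promoters of 7 of the 10 genes matched the RefSeq promoter table (GRCm38.p6), with 12 windows of 300 bases. The motif searched, a loose form of the site NF-κB binds, was GGG, any 3 bases, then TTCC, on both strands. It was 1 of 5 patterns tried and was chosen after the matches were seen. It occurred in at least 1 window of 6 of the 7 genes, against 6.31% of the 27025 genes in the table. By window it occurred in 9 of 12, against 5.56% of all 32851. The 7 genes had more windows per gene than the table as a whole, which gives each gene more places for a match. Nfkbia, Tnfaip3 and Rela are shown because they are an inhibitor with a match, the gene with the largest difference and the gene without a match. Capitals mark the matches, and each sequence reads 5′ to 3′ in the direction of the gene. The windows are chr12:55492598-55492897 (minus strand) for Nfkbia, chr10:19015361-19015660 (minus strand) for Tnfaip3 and chr19:5637291-5637590 (plus strand) for Rela.
Nfkbia: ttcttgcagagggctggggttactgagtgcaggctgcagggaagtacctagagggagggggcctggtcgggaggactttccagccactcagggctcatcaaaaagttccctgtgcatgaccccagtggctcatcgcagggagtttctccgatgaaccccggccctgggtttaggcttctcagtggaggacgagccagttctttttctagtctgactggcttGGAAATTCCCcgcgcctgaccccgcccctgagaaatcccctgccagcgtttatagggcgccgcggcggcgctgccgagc
Tnfaip3: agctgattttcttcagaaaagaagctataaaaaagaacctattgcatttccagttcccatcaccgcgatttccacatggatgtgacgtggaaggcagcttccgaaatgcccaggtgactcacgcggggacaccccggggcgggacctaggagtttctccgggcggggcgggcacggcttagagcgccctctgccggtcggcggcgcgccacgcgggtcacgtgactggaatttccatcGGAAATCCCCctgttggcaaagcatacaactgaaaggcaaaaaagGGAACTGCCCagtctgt
Rela: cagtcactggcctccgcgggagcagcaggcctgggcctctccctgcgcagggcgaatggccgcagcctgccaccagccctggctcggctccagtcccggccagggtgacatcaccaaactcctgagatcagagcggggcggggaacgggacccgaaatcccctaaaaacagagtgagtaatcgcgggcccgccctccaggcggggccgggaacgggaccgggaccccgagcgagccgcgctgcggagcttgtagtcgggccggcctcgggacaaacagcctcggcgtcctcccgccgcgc
The Nfkbia match (GGAAATTCCC on the gene's strand) lay 29 to 20 bases before the annotated start. Tnfaip3 had GGAAATCCCC at 12 to 3 bases before the start and GGAACTGCCC at bases 34 to 43 after it, and a further window of Tnfaip3 held GGGTTATTCC. Rel had GGAAATCCCC at 91 to 82 bases before the start, Nfkbie GGGGGATTCC at 106 to 97 before it, and Nfkb2 5 matches in 3 windows, 2 of which are the same site. In Nfkbid only the window at chr7:30422156-30422455 held a match. A match describes letters and not binding. The strictest pattern (GGGA, any base, then TTTCC) matched 2 of the 7 genes and 0.466% of all genes.

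ATTTA, the core word of AU-rich elements that destabilising proteins bind, was counted in the annotated 3′ UTR of the coding transcript with the most counts (GENCODE M21). Of 10490 tested protein-coding genes with a 3′ UTR, 67.3% held at least 1 ATTTA and 20.6% held 5 or more. Rel had 12 in a 3′ UTR of 5418 bases, Tnfaip3 5 in 1821 bases, Nfkbiz 4 in 1355 bases and Nfkbia 2 in 512 bases. Nfkbid and Nfkb2 had 1 each, and Nfkbie, Rela, Relb and Nfkb1 had 0. The Nfkb1 transcript used has an annotated 3′ UTR of only 77 bases. Another coding transcript, Nfkb1-201, held 36.5% to 46.8% of the Nfkb1 counts, and its 3′ UTR was not searched. The word thus lay in 4 of the 5 inhibitor genes and in 2 of the 5 subunit genes, together a share near the 67.3% of all genes. Nfkb2, Relb and Rela had annotated 3′ UTRs of 128, 336 and 714 bases, against a median of 1012.5 over all genes counted. A difference between inhibitors and subunits was not tested. The longer word TATTTAT occurred 2 times each in Nfkbia, Tnfaip3 and Rel and 0 times in the others, while 28.3% of all genes held it. The 30 bases with the most ATTTA words are shown for the inhibitors whose mRNA levels differ in direction below, with the words in capitals. They lie in the 3′ UTR at chr10:19001753-19001782 (Tnfaip3), chr16:55811851-55811880 (Nfkbiz) and chr12:55489608-55489637 (Nfkbia), all on the minus strand of GRCm38.
Tnfaip3 site: ttATTTAttatgaacttccaagttATTTAa
Nfkbiz site: cctcttagATTTAtgtaATTTAcctaagtt
Nfkbia site: aggaccacgttttATTTAttgtgcttttga

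The libraries held 13889894 to 17827631 estimated counts each, of which 35.7% to 48.9% lay on protein-coding genes. The deleted genes were low in the libraries labelled DKO, with Btg1 at 532 and 472 CPM (TMM-scaled counts relative to library size) in WT against 6.09 and 5.80 in DKO, and Btg2 at 93.4 and 92.5 against 0.296 and 0.325. Cd4 was at 364 to 523 CPM in the 4 libraries. Of 10 B cell and 10 myeloid markers, 7 each stayed under 1 CPM in every library, with summed levels of 4.76 and 7.03 CPM in WT against 4.61 and 5.75 in DKO (B cell) and 14.4 and 16.3 against 14.1 and 17.5 (myeloid). The most abundant of each were Cd74, the MHC class II invariant chain (1.66, 3.99, 2.07 and 1.39 CPM), and Cst3 (8.08, 11.4, 10.9 and 11.5 CPM). Markers of regulatory T cells, which the CD25- gate should largely remove, summed over 8 genes to 63.5 and 83.6 CPM in WT against 129 and 146 in DKO, with 7 of the 8 above WT in both DKO libraries (19.8% of all genes) and 0 called by edgeR, though 6 were higher at an unadjusted p below 0.05 (3.82% of all genes). The heat-shock genes Hspa1a and Hspa1b, chosen like Cd4 after their values were seen, set DKO replicate 1 apart, at 145 and 262 CPM against at most 16.8 and 43.2 in the other libraries. Nuclear protein-coding genes other than Lars2 took 30.7% and 30.4% of the counts in WT and 35.4% and 40.4% in DKO, so values below depend on the scaling, and CPM here use library sizes scaled by edgeR's TMM factors. In bulk RNA, fewer cells of a type and less RNA per cell cannot be told apart.

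Tnfaip3 and Nfkbiz lay lower in DKO, 7 of the other 8 genes had a fold change above 1, and 0 of the 10 passed the test. All 10 passed the filter on low counts. The test was edgeR's quasi-likelihood test, adjusted by Benjamini-Hochberg over 12863 genes, and it called 0.124% of them (0.0544% higher and 0.07% lower in DKO). At an unadjusted p below 0.05, 1 of the 10 was lower and 0 higher, against 4.35% and 3.82% of all genes. In 4 of the 10 genes DKO stood above WT in both libraries without overlap and in 2 below, against 19.8% and 18.8% of all genes tested. The median log2 fold change, DKO minus WT, was 0.149 over the 10 genes and −0.015 over all genes tested. The 10 genes together took 528 and 464 CPM in WT and 420 and 452 in DKO. With 2 libraries against 2 an exact permutation test cannot give a p below 0.33, and the p-values for genes come from the model fitted across all genes.

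**Figure D1:**
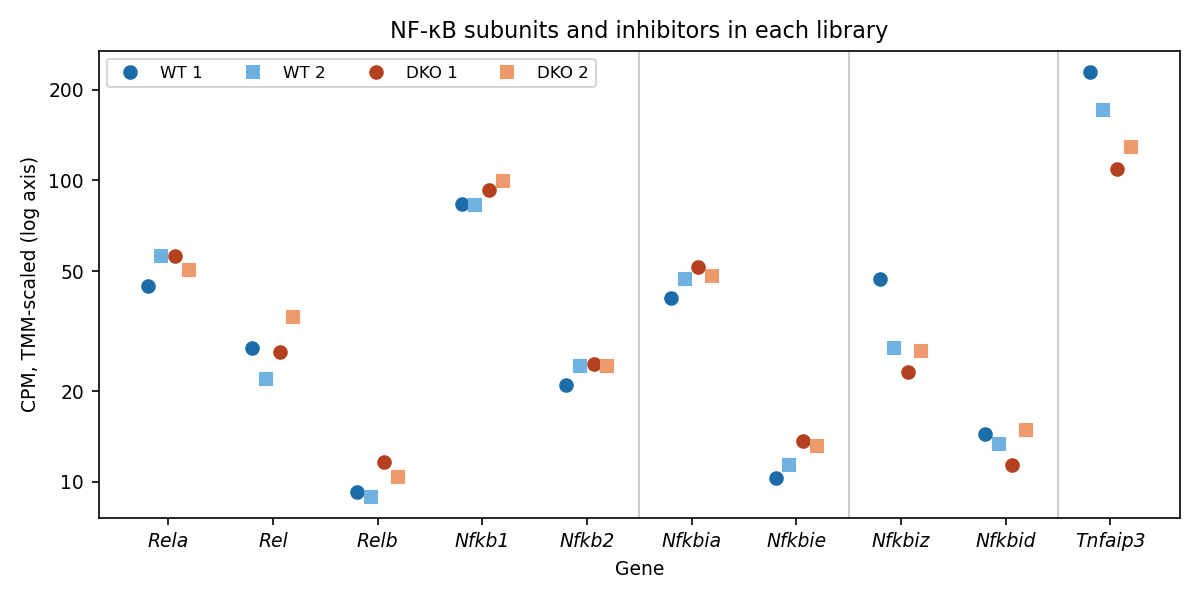
TMM-scaled CPM, counts relative to library size (log axis), of the 10 genes in each of the 2 WT and 2 DKO libraries, with subunits, cytoplasmic IκB genes, nuclear IκB genes and Tnfaip3 separated by lines. Each point is 1 library. Tnfaip3 lies at 171 and 229 CPM in WT and at 109 and 129 in DKO, while for most other genes the 4 points lie close together.

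Tnfaip3 encodes A20, a ubiquitin-editing enzyme that stops signalling upstream of IKK and had the highest CPM of the 10 genes. It was at 229 and 171 CPM in WT and at 109 and 129 CPM in DKO. Both DKO libraries were below both WT libraries. Means were 119 ± 14.1 CPM for DKO and 200 ± 41.5 for WT (SD, n = 2 each). The log2 fold change was −0.75 with an SE of 0.18, or 59.3% of the WT level. The difference did not pass edgeR's test (unadjusted p = 0.00241, rank 144 of all genes, adjusted p = 0.215). It passed, against backgrounds of 1.15%, 1.52% and 0.556% of genes called, with DESeq2 (log2 −0.735, adjusted p = 0.0172), without the filter on low counts (−0.71, adjusted p = 0.0016) and, in edgeR, without WT replicate 2 (−0.94, adjusted p = 0.033), while scaling to RNA polymerase III transcripts gave 0.14. Its share of the counts of all 10 genes, which needs no scaling between libraries, came to 43.4% and 36.8% for WT but 25.8% and 28.4% for DKO. This share was not among the planned comparisons. It restates the same counts for the gene with the largest difference and is no separate test.

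In CPM, most of the lower Tnfaip3 level lay in the long coding transcripts Tnfaip3-201 and Tnfaip3-202, which also held most of its counts. The longest coding transcript, Tnfaip3-201 with 4422 bases, was at 99.7 and 99.0 CPM in WT and at 52.3 and 57.1 CPM in DKO, close together within each genotype. Tnfaip3-202, with 4334 bases, was at 60.4 and 26.8 CPM in WT and 22.0 and 24.8 in DKO, so that WT replicate 1 alone was far higher. The retained-intron transcript Tnfaip3-205, with 6199 bases, was at 57.0 and 39.6 against 30.4 and 38.6 CPM. Tnfaip3-206, also with a retained intron, was at 8.67 and 4.13 against 2.2 and 4.55 CPM, and its groups overlapped. Retained-intron transcripts held 28.6% and 25.6% of the Tnfaip3 counts for WT but 30% and 33.6% for DKO, a larger share in both DKO libraries (exact two-sided permutation p = 0.33, the smallest possible). Kallisto divides reads that fit several transcripts, so these splits are estimates.

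**Figure D2:**
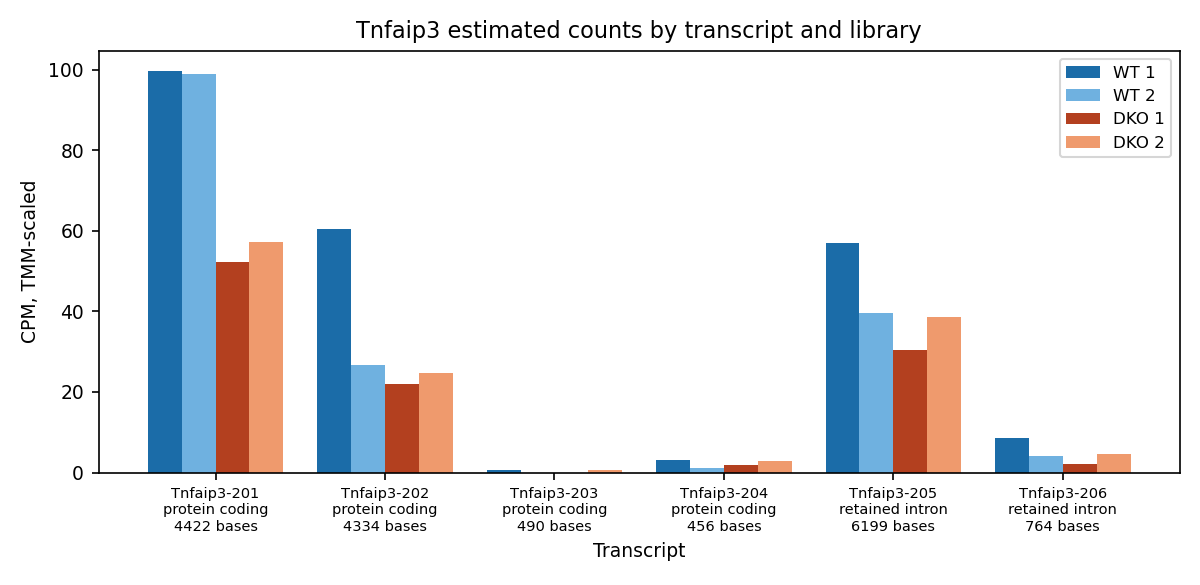
TMM-scaled CPM of the 6 annotated Tnfaip3 transcripts, with 1 bar per library (WT blue, DKO red) and the biotype and length under each. Tnfaip3-201 stands at 99.7 and 99.0 in WT and 52.3 and 57.1 in DKO, and Tnfaip3-202 is high in WT replicate 1 alone.

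The remaining feedback genes did not share that difference evenly. Nfkbiz encodes IκBζ, a nuclear IκB protein that activates a subset of NF-κB targets. It was at 47.2 and 27.7 CPM in WT and at 23.1 and 27.2 CPM in DKO. WT replicate 1 stood apart, and the other 3 libraries lay within 23.1 to 27.7 CPM. The log2 fold change was −0.57 (SE 0.25, adjusted p = 0.643 by edgeR), and it was −0.14 without WT replicate 1 and −0.89 without WT replicate 2. Nfkbiz-204 held 97.9% to 99.7% of its counts. Nfkbid, which encodes the nuclear protein IκBNS, was at 14.4 and 13.3 CPM in WT and 11.4 and 14.8 in DKO. The groups overlapped, with a log2 fold change of −0.077 (SE 0.20).

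Of the cytoplasmic inhibitors, neither passed the test. Nfkbia encodes IκBα, which binds NF-κB dimers and is resynthesised rapidly after activation. It had 40.6 and 47.1 CPM in WT and 51.6 and 48.2 CPM in DKO. The groups did not overlap, but WT replicate 2 and DKO replicate 2 were nearly equal. Its log2 fold change was 0.19 (SE 0.14, adjusted p = 0.802 by edgeR), and 97.6% to 99.6% of its counts lay in Nfkbia-201. Nfkbie, encoding IκBε, was at 10.3 and 11.4 CPM in WT and 13.7 and 13.1 in DKO, a log2 fold change of 0.30 (SE 0.18, adjusted p = 0.718). The ratio of Nfkbia to Tnfaip3 counts within a library, compared after its values were seen, was −2.50 and −1.86 on the log2 scale for WT, against −1.08 and −1.41 for DKO. That is a difference of 0.93 with no overlap (exact two-sided permutation p = 0.33, the smallest possible).

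Among the subunits, Nfkb1 was the most abundant by count and nearly equal within the WT pair. It encodes p105, the precursor of p50, and was at 83.4 and 82.7 CPM in WT and 93.0 and 99.6 CPM in DKO. Both DKO libraries were above both WT libraries, with a log2 fold change of 0.21 (SE 0.13, adjusted p = 0.718 by edgeR). With 1 library left out it ran from 0.19 to 0.28. Rela, encoding the activating subunit p65, was at 44.8 and 56.0 CPM in WT and 56.0 and 50.6 in DKO. Its groups overlapped, and the log2 fold change was 0.081 (SE 0.15). Rel encodes c-Rel, a subunit prominent in lymphocytes, and was at 27.7 and 21.9 CPM in WT and 26.9 and 35.2 in DKO. Its groups also overlapped, DKO replicate 2 being the highest, with a log2 fold change of 0.32 (SE 0.18).

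Leaving out 1 library moved most of the small differences by more. The log2 fold change then ran from 0.08 to 0.31 for Nfkbia, 0.23 to 0.39 for Nfkbie, −0.26 to 0.12 for Nfkbid, 0.14 to 0.52 for Rel, −0.07 to 0.27 for Rela, 0.21 to 0.38 for Relb and 0.01 to 0.23 for Nfkb2. The sign of Nfkbid and Rela thus rested on single libraries (Nfkbid 0.12 without DKO replicate 1, Rela −0.074 without WT replicate 1).

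The subunits of the alternative pathway did not pass the test either. Relb, the partner of p52, was at 9.23 and 8.93 CPM in WT and 11.6 and 10.4 in DKO, a log2 fold change of 0.27 (SE 0.20) with no overlap. Nfkb2, the p100 precursor of p52, was at 21.0 and 24.3 CPM in WT and 24.6 and 24.3 in DKO, a log2 fold change of 0.11 (SE 0.15). WT replicate 2 and DKO replicate 2 were equal to 3 digits, and the unrounded values overlapped. Adjusted p-values of the 5 subunits ran from 0.710 to 0.946 by edgeR. Within Nfkb2 the transcript Nfkb2-202, with 3205 bases, held 16.0% and 26.2% of the Nfkb2 total in WT but 31.8% and 35.4% of it in DKO. The shares did not overlap, but these transcripts share most of their sequence and the split is an estimate. Nfkb2-202 is 1 of 38 transcripts of the 10 genes with counts. How many transcripts of all genes separate in this way was not counted.

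In GRCm38 the subunit genes lie at chr3:135584655-135691547 (Nfkb1, ENSMUSG00000028163, minus strand), chr19:5637483-5648130 (Rela, ENSMUSG00000024927, plus), chr11:23736847-23770970 (Rel, ENSMUSG00000020275, minus), chr7:19606217-19629438 (Relb, ENSMUSG00000002983, minus) and chr19:46304320-46312385 (Nfkb2, ENSMUSG00000025225, plus). The inhibitor genes lie at chr10:19000910-19015657 (Tnfaip3, ENSMUSG00000019850, minus), chr12:55489410-55492647 (Nfkbia, ENSMUSG00000021025, minus), chr17:45555703-45563169 (Nfkbie, ENSMUSG00000023947, plus), chr16:55811375-55838899 (Nfkbiz, ENSMUSG00000035356, minus) and chr7:30421732-30428746 (Nfkbid, ENSMUSG00000036931, plus).

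**Figure D3:**
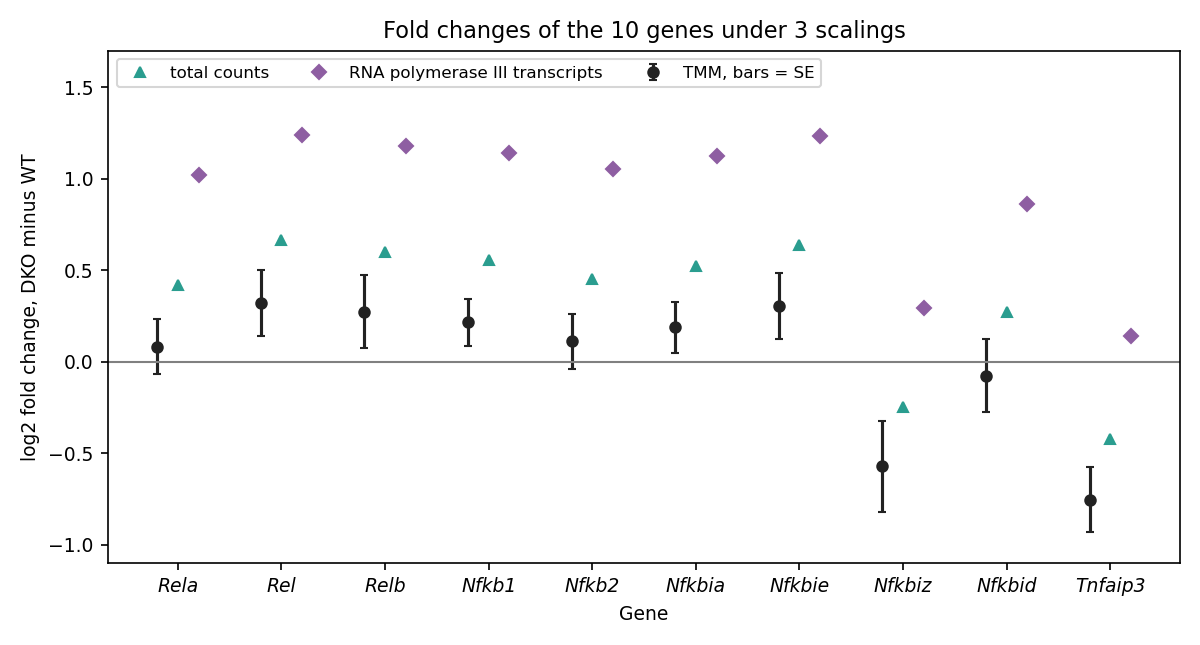
Log2 fold change, DKO minus WT, of the 10 genes under 3 scalings: TMM (black, bars are SE), total counts (green) and 5 RNA polymerase III transcripts (purple). The order of the genes is alike, and Tnfaip3 and Nfkbiz are lowest in each, but all values move up together, and Tnfaip3 changes from −0.75 to 0.14.

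The choice of scale moved the 10 genes together with the rest, and 0 of them were called under any scaling. The share of all genes called was 1.72% with total counts, 0.163% with relative log expression factors and 3.84% with RNA polymerase III scaling. The median of all genes tested was −0.015 under TMM, 0.320 with total counts and 0.904 when scaled to RNA polymerase III transcripts. The median of the 10 genes was 0.149, 0.488 and 1.086 under the same scalings. The sign of Tnfaip3 (0.14), Nfkbiz (0.29) and Nfkbid (0.86) turned under the last, and that of Nfkbid (0.27) under total counts. Tnfaip3 was the 1 gene of the 10 called with DESeq2, without the filter and without WT replicate 2, as given above. In the remaining settings 0 were called, against 0.478% of genes with protein-coding genes only, 0.128% with protein-coding transcripts only, 0.241% with an effective length offset, 0.0% and 0.0612% by limma on log2(TPM + 1) and log2(TPM + 0.1), and 1.18%, 0.366% and 0.293% without WT replicate 1, DKO replicate 1 and DKO replicate 2.

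Levels were compared between genes per length, as TPM rescaled to the same total over nuclear protein-coding genes without Lars2, because these genes held only 1.97% to 2.38% of the deposited TPM. On that scale Tnfaip3 came first with a mean of 201 over the 4 libraries (lowest 133, highest 306), then Nfkbia with 139 (120.0 to 159) and Nfkb1 with 118 (89.8 to 147). Rela had 83.3 (74.2 to 91.2). The other genes were Nfkbiz (37.7), Nfkb2 (33.1), Nfkbid (30.4), Nfkbie (22.1), Relb (21.4) and Rel (16.1). The ranges of neighbours in this order overlapped, with the exception of Rela and Nfkbiz. The Tnfaip3 groups overlapped on this scale, at 306 and 166 in WT and 133 and 200 in DKO, and 21.7% to 41.4% of the Tnfaip3 TPM lay on transcripts under 1000 bases.

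The balance of inhibitors and subunits was compared within each library. The summed TPM of Nfkbia, Nfkbib and Nfkbie over that of the 5 subunits gave 0.758 and 0.742 for WT, against 0.811 and 0.762 for DKO. On the log2 scale the DKO mean was −0.35 ± 0.0629 and the WT mean −0.42 ± 0.0225 (SD, n = 2 each), which differ by 0.07 (exact two-sided permutation p = 0.33). The inhibitors summed to 3.78 and 3.32 TPM in WT and 5.30 and 5.79 in DKO, and the subunits to 4.99 and 4.48 against 6.54 and 7.60. These sums are in TPM as deposited, without scaling between libraries. Nuclear protein-coding genes without Lars2 took 1.97% and 2.0% of that TPM in WT and 2.27% and 2.38% in DKO. The sums thus depend on the scale, while the ratio does not. With protein-coding transcripts only the difference in ratio was 0.023, and for Nfkbia alone it was 0.041, with overlapping libraries.

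Transcripts not annotated as protein-coding, most of them with retained introns, took 16.1% and 10.5% of the counts of the 10 genes in WT and 10% and 13.3% in DKO. The groups overlapped (exact two-sided permutation p = 0.667). Over all protein-coding genes the same share was 27.3% and 20.2% against 25.7% and 23.2%. Among the 10 genes it was spread unevenly. Nfkbie, Rel, Rela and Nfkb2 have only transcripts annotated as protein-coding, so their share of 0 is set by the annotation. Relb ranged from 7.61% to 43.1% at 103 to 224 counts per library.

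Around these 10 genes, 6 lists held 91 genes of the signalling steps and targets. Of these 81 were tested, and edgeR called 0; 11 were higher and 5 lower at an unadjusted p below 0.05, against 3.82% and 4.35% of all genes. DESeq2 called 1 of 83 (Junb, lower), and limma 0 of 78. With total counts 4 were called, all higher (Cd27, Il2ra, Tlr1 and Tnfrsf4), with RNA polymerase III scaling 10, all higher, without the filter 3 higher and 1 lower of 90 (Il2ra, Tlr1, Tnfrsf4 and Junb), and with protein-coding genes only 1 (Junb). The upstream kinases (12 tested) had a median log2 fold change of 0.062. Map3k14, encoding NIK, the kinase of the alternative pathway, was at 48.0 and 46.6 CPM in WT and 35.3 and 36.6 in DKO (log2 −0.40, adjusted p = 0.436). Tbk1, encoding an IKK-related kinase, was at 19.9 and 24.9 against 33.9 and 27.0 CPM (0.44, adjusted p = 0.573), and its relative Ikbke was at 0.30.

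The ubiquitin ligase list (12 tested) had a median of −0.024, with the adaptor genes Traf1 at 0.42 and Traf2 at −0.25, the kinase gene Ripk1 at 0.24 and Birc3, encoding cIAP2, at 0.034.

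Other negative regulators (18 tested) had a median of 0.007. Zc3h12a encodes Regnase-1, an RNase that degrades mRNAs of activated T cells, and had 17.8 and 9.97 CPM in WT and 8.34 and 10.1 in DKO. As for Nfkbiz, WT replicate 1 stood apart, and the log2 fold change of −0.59 (adjusted p = 0.647 by edgeR) was −0.11 without it. Peli1, encoding a ubiquitin ligase that restrains c-Rel, was at 118 and 133 against 163 and 168 CPM (0.40, adjusted p = 0.465). Tnip1, whose product ABIN-1 works with A20, was at 70.9 and 83.7 against 94.7 and 98.6 CPM (0.32, adjusted p = 0.606), and Traf3ip3 was at 0.046. The remaining IκB family genes were Nfkbib, encoding IκBβ, at 13.6 and 8.85 against 14.1 and 14.2 CPM (0.33, with 0.67 when WT replicate 1 was left out and 0.075 when WT replicate 2 was) and Bcl3 at 10.2 and 20.2 against 17.1 and 8.81 CPM (−0.23).

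Of the 6 pathway lists, the receptor list had the largest median, 0.361 over 16 tested of 19 genes. That list also holds the ligand gene Cd40lg and the signalling genes Myd88, Irak1 and Irak4. DKO stood above WT for 9 of its genes and below for 5, against 19.8% and 18.8% of all genes tested. Tnfrsf4, encoding the co-stimulatory receptor OX40, was at 2.67 and 3.64 CPM in WT and 6.98 and 8.58 in DKO (log2 1.31, adjusted p = 0.188 by edgeR). It passed with total counts (adjusted p = 0.0188), with RNA polymerase III scaling (0.00386) and without the filter (0.00418). Cd27, a co-stimulatory receptor of naive cells, was at 68.5 and 83.5 against 106 and 101 CPM (0.45, adjusted p = 0.416), and Tlr1 was at 0.63. The regulatory T cell marker sum given above moved in the same direction. The lists share genes: Tnfrsf18 is in the receptor list and among those markers, and Il2ra is among those markers and in the target list. Izumo1r, the most abundant of those markers, was at 34.6 and 50.4 against 77.4 and 75.0 CPM (log2 0.84, adjusted p = 0.181 by edgeR). Izumo1r passed with total counts (adjusted p = 0.00581), RNA polymerase III scaling (0.00633), DESeq2 (0.0186), no filter (3.3e-05), protein-coding genes only (0.0423) and without WT replicate 2 (0.0185). The part of regulatory T cell transcripts in these values was not tested.

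**Figure D4:**
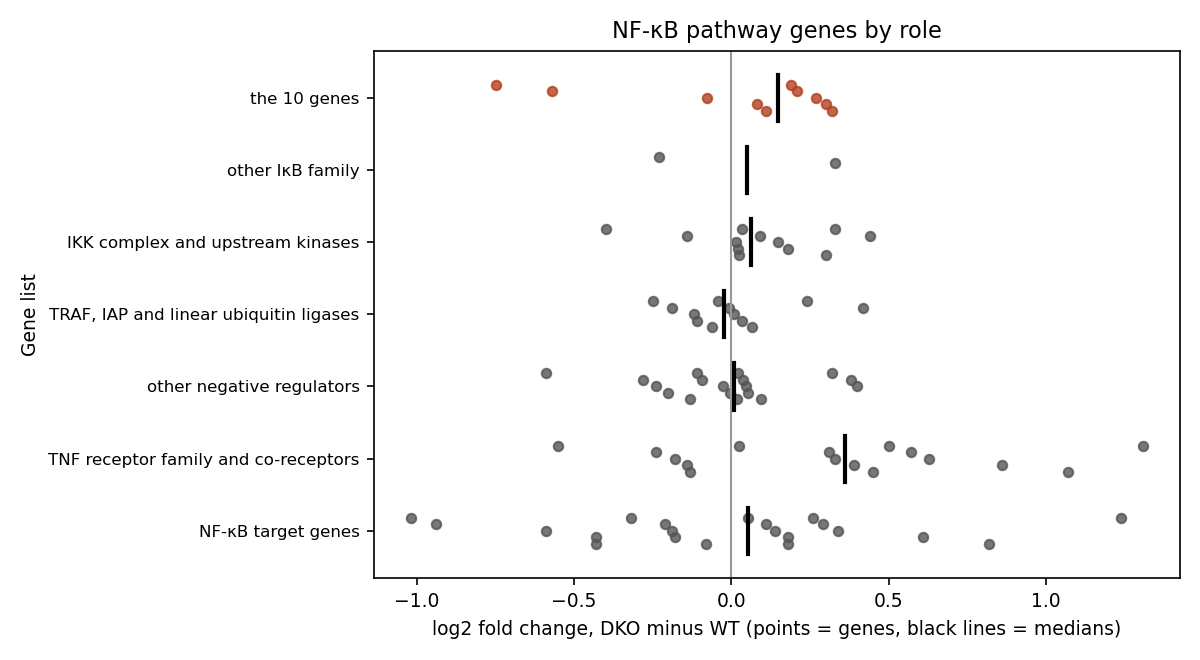
Log2 fold change, DKO minus WT, of each tested gene in the 10-gene set (red) and in 6 lists of the pathway (grey), with 1 point per gene and a black line at the median. The median is 0.149 for the 10 genes and 0.361 for the receptor list, and the points of each list lie on both sides of 0.

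The target list (21 tested of 28) had a median of 0.053, with values from −1.02 to 1.24. Junb, an AP-1 gene counted as an NF-κB target and as an immediate-early gene, was at 525 and 611 CPM in WT and 330 and 229 in DKO (log2 −1.02, SE 0.20, adjusted p = 0.146 by edgeR). It passed with DESeq2 (adjusted p = 0.000202), without the filter (9.5e-07) and with protein-coding genes only (0.0353). It did not pass with total counts (log2 −0.703, adjusted p = 0.0501 by edgeR) or by limma on log2(TPM + 1) (−0.618, adjusted p = 0.236). Scaling to RNA polymerase III transcripts gave −0.121 (adjusted p = 0.78 by edgeR). Ier2, also immediate-early, was at 55.6 and 71.7 against 52.1 and 42.4 CPM (−0.43). Il2ra, encoding CD25, the marker the sort excluded, was at 1.88 and 3.21 against 6.09 and 5.84 CPM (1.24, adjusted p = 0.327). Both DKO libraries lay below both WT libraries for 6 of 13 tested genes of the immediate-early and handling list, against 18.8% of all genes. Btg2 was among these 6. For 2 genes, Egr1 and Hspa1a, both DKO libraries lay above, against 19.8% of all genes. The list summed to 1620 and 2090 CPM in WT and 1750 and 1140 in DKO, which overlapped. Without Hspa1a, Hspa1b and the deleted Btg2, a sum added after the values were seen, it came to 1510 and 1940 CPM in WT and 1340 and 1090 in DKO, and the groups did not overlap. Much of that sum was Junb and Jun, the latter at 402 and 506 against 377 and 268 CPM (log2 −0.50). A sum without Junb and Jun was not made. Egr1 went the other way, at 36.7 and 50.8 against 55.7 and 69.3 CPM (0.52), and the Fos groups overlapped (−0.11). Tnfaip3 and Nfkbiz were lower in the same 2 libraries, and the part of handling in their values was not tested.

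The protein-coding genes whose profile over the 4 libraries was most like that of Nfkbia were Lgals8, Supt6, Arhgef2, Clptm1 and Lrrc8a. Likeness was the distance between log2 CPM values centred on each gene, and it ran from 0.013 to 0.0213. With 4 libraries many genes can lie this close. Their log2 fold changes were 0.17 to 0.20, against 0.19 for Nfkbia, a likeness that follows from how they were chosen.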

How the data were processed

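RNA of sorted naive CD4 T cells was sequenced after rRNA depletion with a stranded low-input total RNA kit, per the labels' protocols. The authors quantified transcripts with kallisto, with the builds mm10 and GRCm38 named, per the submitters' processing notes; for its version, strand setting and annotation, the sources used here give nothing. Per the file headers, the deposited columns are estimated counts for each transcript, the authors' TPM and effective lengths. Of 126782 transcripts, 125182 were joined to GENCODE M21 and summed to 48858 genes, and counts were rounded; transcripts without a gene held 0.822% to 0.852% of the counts. At 3 counts, taken as the floor, a library had 0.168 to 0.216 CPM. The 10 genes had 103 to 3181 counts per library, a counting error of 9.85% to 1.77%; intervals of this kind cover counting error only. Antisense overlaps cannot be resolved here, as the strand setting is not stated.

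The main test was edgeR 4.0.16 under R 4.3.3 (filterByExpr, TMM, robust quasi-likelihood F test, Benjamini-Hochberg adjustment at 0.05), on 12863 genes. The SE was derived from the log2 fold change and the F statistic. Alternatives used other scalings, DESeq2 1.42.0, limma 3.58.1 on log2(TPM + 1) and log2(TPM + 0.1) with at least 0.1 TPM in 2 libraries, other filters and each library left out. The functions were tested on simulated data, in which edgeR called 36 of 56 genes with a true log2 difference of 1. Differences between 0 and 1 were not simulated. The labels speak of pairs of mice, so the 2 libraries of a genotype were taken as 2 mice. The p-values for genes rest on the spread between libraries as modelled across all genes, not on each gene's own libraries alone. The 10 genes and the lists were chosen with earlier results of these data known. A further list of pathway genes is not reported here. Beside the 10, genes were named by rule: of each pathway list the 3 with the smallest p and the one with the highest mean TPM, of each marker list the one with the highest mean TPM, and the 5 nearest to Nfkbia. The other marker lists summed to 3210 and 3890 CPM in WT against 3780 and 3670 in DKO for naive CD4 T cells (most abundant Trac, log2 0.049), 42.0 and 48.3 against 57.3 and 62.3 for activated or memory cells (Id2, −0.36), and 25.2 and 30.4 against 36.7 and 31.6 for CD8 T and NK cells (Prf1, 0.009). Of 3 activated or memory markers tested, 2 stood above WT in both DKO libraries and 1 (Id2) below, with a median log2 of 0.862. Cd44, added because the sort used it, was at 15.1 and 16.9 against 29.5 and 28.8 CPM (0.86, adjusted p = 0.102 by edgeR). Of 3 CD8 T and NK markers tested, 2 stood above WT and 0 below, with a median of 0.604. Over all genes tested, DKO stood above WT in 19.8% and below in 18.8%.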

Additional observations from a re-analysis of the deposited data

How the results depend on the processing

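EdgeR called 16 genes in all (7 higher, 9 lower in DKO). The count was 221 with total counts, 494 when scaled to RNA polymerase III transcripts, 165 with DESeq2, 395 without the filter, 51 with protein-coding genes only, 31 with an effective length offset, and 0, 7 and 0 by limma on log2(TPM + 1), on log2(TPM + 0.1) and on log2(TPM + 1) without a filter. It ranged from 40 to 165 when 1 library was left out (165 without WT replicate 1, 80 without WT replicate 2, 52 without DKO replicate 1, 40 without DKO replicate 2). Of the 10 genes, 1 (Tnfaip3) was called with DESeq2, without the filter and without WT replicate 2, and 0 in every other setting run, the leave-one-out range being 0 to 1. Their median was 0.488 with total counts, 1.086 with RNA polymerase III scaling and 0.479 on log2(TPM + 0.1), against 0.149; it ranged from 0.044 to 0.228 with 1 library left out. The difference in inhibitor to subunit ratio ranged from 0.024 to 0.113, and that in non-coding share from −4.473 to 1.156 percentage points, the sign turning without WT replicate 1. With the replicate numbers as a block, 143 genes and 0 of the 10 were called, with Junb (adjusted p = 0.0273), Tnfrsf4 (0.0477) and Izumo1r (0.0119) among the named genes called; the labels do not say that a number marks a shared litter, and the deviations of same-numbered libraries correlated at −0.316 over 12863 genes. The cause of these shifts was not tested, apart from the scalings, which move all genes together.

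Directions turned for these log2 fold changes. With RNA polymerase III scaling: Bcl3 (0.72), Cd74 (0.29), Id2 (0.60), Ier2 (0.50), Map3k14 (0.52), Nfkbid (0.86), Nfkbiz (0.29), Tnfaip3 (0.14), Traf2 (0.69), Zc3h12a (0.27). With total counts: Bcl3 (0.096), Nfkbid (0.27), Traf2 (0.092). On log2(TPM + 1), with and without a filter: Bcl3 (0.067), Id2 (0.034), Nfkbid (0.15), Traf2 (0.066). On log2(TPM + 0.1): Bcl3 (0.14), Id2 (0.047), Nfkbid (0.32), Traf2 (0.17). With protein-coding genes only: Birc3 (−0.004), Prf1 (−0.025); with protein-coding transcripts only: Prf1 (−0.045); with the replicate block: Prf1 (−0.008). With 1 library left out the values that turned ranged from Bcl3 −0.760 to 0.355, Birc3 −0.114 to 0.219, Cd74 −1.213 to 0.069, Cst3 −0.019 to 0.490, Nfkbid −0.258 to 0.118, Prf1 −0.297 to 0.306, Rela −0.074 to 0.266, Trac −0.173 to 0.325. The other log2 fold changes of the 10 genes kept their direction in these settings.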
